A study of Mus musculus with 24 samples.

Results

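Retinoid binding and synthesis genes were followed in the injured mouse brain at 5 days after traumatic brain injury (TBI). The 6 genes, Crabp1, Crabp2, Rbp4, Aldh1a1, Aldh1a2 and Stra6, were chosen by gene symbol around the rise of Crabp1 in the drug-treated groups, out of 36333 genes listed. All 6 had a mean of at least 0.5 TPM (transcript counts scaled to the same total in every library and divided by length) and were among the 17267 genes tested. The drug differences of Crabp1 chose the set, so its values, and those of the other members against Vehicle, are given as a description without a test.

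RNA of the lesional and perilesional brain was sequenced from 24 male mice, 1 library per mouse, and expression was given as TPM, a level per transcript length. All mice were 12 to 16 weeks old and labelled C57BL6N, while the methods name C57BL/6JRj, and no genetic change was made. TBI was set by controlled cortical impact. The 5 Vehicle mice received control chow and saline. The 5 PLX3397 mice ate chow with 290 mg/kg of PLX3397, an inhibitor of the CSF1R kinase on which microglia depend, from the day of surgery. The 5 Anakinra mice received 100 mg/kg of Anakinra, a blocker of the interleukin-1 receptor IL1R1, by subcutaneous injection on the day of surgery and on the following days. The 5 PLX3397+Anakinra mice received both drugs, and the 4 Sham mice had skin surgery and vehicle without craniotomy or impact. The labels call the tissue cortex, whereas the methods describe sections that also hold striatum, dorsal hippocampus and thalamus. The 5 striatal markers were present in every group, with sums of 1171 to 1932 TPM.

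Retinoic acid is made from vitamin A and acts inside the nucleus. RBP4 carries retinol in blood, and STRA6 takes it into cells. Retinol is oxidised to retinaldehyde, and the dehydrogenases ALDH1A1 and ALDH1A2 turn retinaldehyde into retinoic acid. CRABP1 and CRABP2 bind retinoic acid in the cytoplasm, and CRABP2 hands it to the retinoic acid receptors (RARs), which pair with retinoid X receptors (RXRs) on DNA. In the brain, ALDH1A2 is known from the meninges. CYP26 enzymes degrade retinoic acid.

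Crabp1 lies at chr9:54764748-54773110, Aldh1a2 at chr9:71215789-71296243 and Stra6 at chr9:58063793-58154004. Crabp2 lies at chr3:87948693-87953372, Rbp4 at chr19:38116620-38125321 and Aldh1a1 at chr19:20492583-20643463, all in the RefSeq annotation of GRCm38.p6. Promoter windows were found for 5 of the 6 members. The 250 bases before the start are shown for Crabp1, the gene around whose rise the set was built, at chr9:54764498-54764747. They are also shown for the synthesis enzymes, both of which differed with injury. Aldh1a1 has 2 listed starts, with windows at chr19:20492333-20492582 (outer) and chr19:20601718-20601967 (inner), and the window of Aldh1a2 is at chr9:71215539-71215788. All are on the plus strand. Capitals mark matches on either strand to the GC box, written GGGCGG, and to the TATA box, written TATAAA. They also mark 3 hexamers that nuclear receptors bind, of which the first is AGGTCA, the second searched was GGGTCA, and the last of them was AGTTCA.
Crabp1: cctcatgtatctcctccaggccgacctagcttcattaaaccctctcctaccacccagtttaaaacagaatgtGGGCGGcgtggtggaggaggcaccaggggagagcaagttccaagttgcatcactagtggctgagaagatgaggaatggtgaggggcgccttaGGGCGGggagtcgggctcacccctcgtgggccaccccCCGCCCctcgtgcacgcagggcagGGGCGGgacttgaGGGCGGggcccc
Aldh1a1, outer start: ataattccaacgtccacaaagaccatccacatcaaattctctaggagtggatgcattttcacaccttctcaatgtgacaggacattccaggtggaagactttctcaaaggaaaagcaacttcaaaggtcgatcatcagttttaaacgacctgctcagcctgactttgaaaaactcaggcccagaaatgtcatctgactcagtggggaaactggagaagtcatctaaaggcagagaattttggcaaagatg
Aldh1a1, inner start: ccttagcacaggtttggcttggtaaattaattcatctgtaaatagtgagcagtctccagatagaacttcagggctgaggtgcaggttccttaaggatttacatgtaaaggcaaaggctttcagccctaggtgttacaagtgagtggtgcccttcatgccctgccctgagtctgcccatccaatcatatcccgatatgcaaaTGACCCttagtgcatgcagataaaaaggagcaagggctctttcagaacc
Aldh1a2: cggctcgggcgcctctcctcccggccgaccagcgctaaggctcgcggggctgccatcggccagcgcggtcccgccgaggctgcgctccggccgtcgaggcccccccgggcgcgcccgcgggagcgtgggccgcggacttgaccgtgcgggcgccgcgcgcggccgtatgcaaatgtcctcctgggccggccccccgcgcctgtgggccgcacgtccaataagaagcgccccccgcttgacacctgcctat
The Crabp1 window held 5 GC boxes, its most frequent motif, and none of the hexamers. At least 1 GC box occurred in 32.7% of the 32851 promoter windows of this length. The inner Aldh1a1 window held 1 match to the second hexamer, on the minus strand, a motif found in 11.6% of windows. The outer Aldh1a1 window and the Aldh1a2 window held no match to any of these motifs. Direct repeats of the first hexamer spaced by 1, 2 or 5 bases were found in none of the 4 windows shown, and in 11, 3 and 3 of all windows. These are matches of letters only. The windows were 63.6% G or C for Crabp1, 42.8% and 46.4% for the outer and inner start of Aldh1a1, and 77.6% for Aldh1a2, against a median of 52.4% over all windows.

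Of the 6 genes, Aldh1a1 was the most abundant, with a mean of 128 TPM over the 24 libraries. Rbp4 followed with 20.5 TPM and Crabp1 with 17.6 TPM. Aldh1a2 had 9.43 TPM, Crabp2 had 8.05 TPM and Stra6 had 5.86 TPM. Crabp1 varied most between libraries, with a coefficient of variation of 50.9%, against 30.3% for Crabp2 and 12.5% for Rbp4.

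Crabp1, the cytoplasmic carrier of retinoic acid, was higher in all 3 drug-treated groups than in Vehicle. The 4 Sham mice had 6.91, 6.09, 9.37 and 5.08 TPM. The 5 Vehicle mice had 11.2, 9.28, 8.96, 11.6 and 6.41 TPM. Sham and Vehicle mice overlapped. The PLX3397 mice had 12.7, 22.5, 32.3, 19.5 and 24.2 TPM. The Anakinra mice had 25.8, 17.02, 16.7, 18.2 and 27.1 TPM. The PLX3397+Anakinra mice had 26.0, 33.6, 21.1, 18.2 and 32.4 TPM. Every drug-treated mouse lay above every Vehicle mouse, and the 3 drug-treated groups overlapped with each other.

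**Figure D1:**
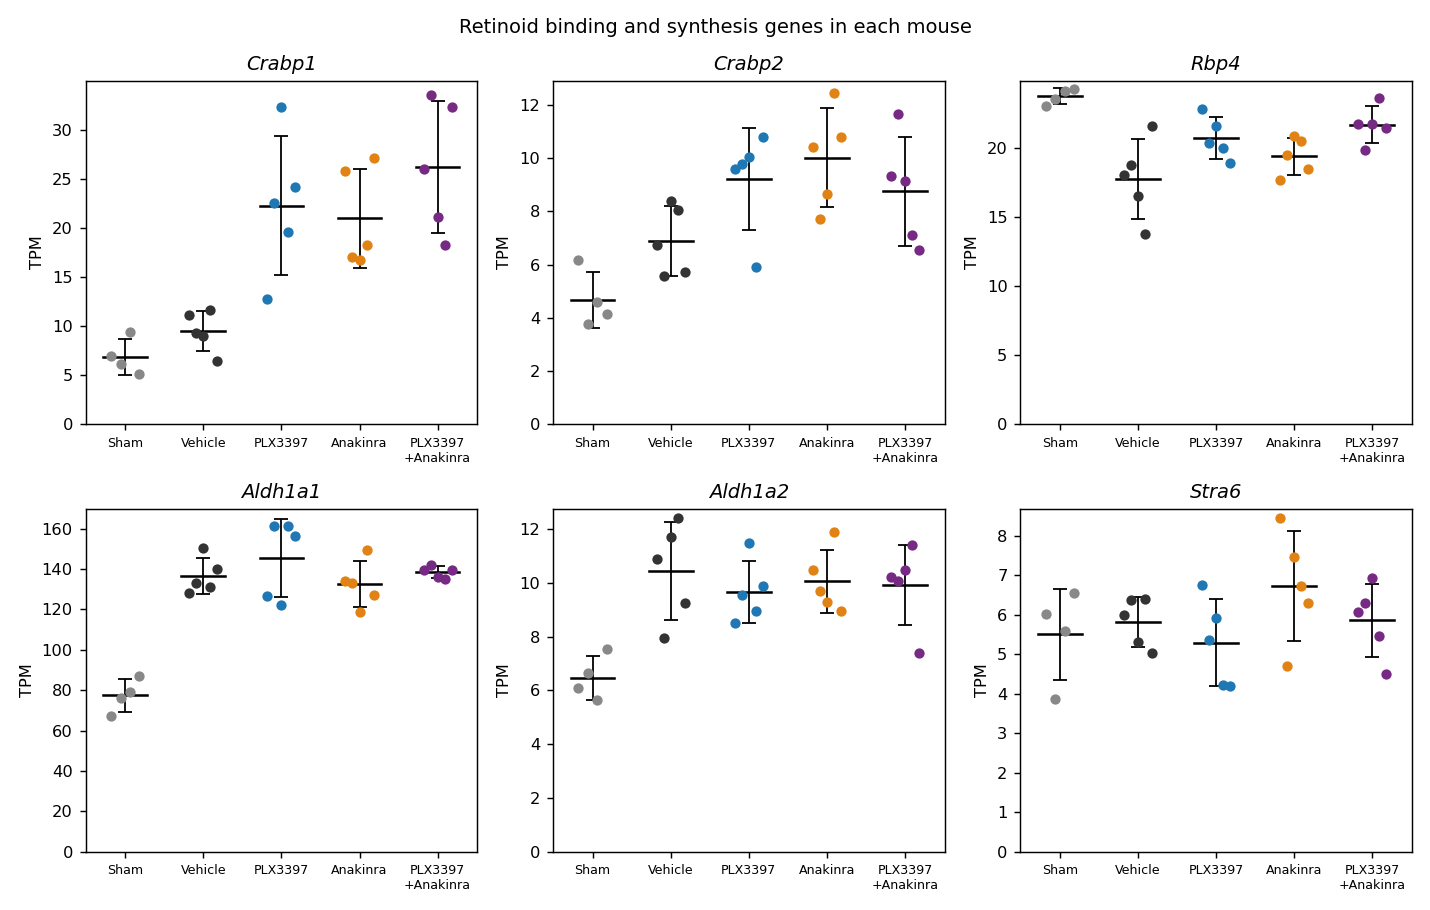
TPM of the 6 genes in each mouse (points) with the group mean and SD (bars), n = 4 Sham mice and 5 mice in each other group. In the Crabp1 panel the lowest drug-treated mouse, at 12.7 TPM, lies above the highest Vehicle mouse, at 11.6 TPM, and in the Aldh1a1 panel the Sham mice lie apart below all others.

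The group means of Crabp1 were 6.86 ± 1.83 TPM (SD, n = 4) in Sham and 9.48 ± 2.06 TPM (SD, n = 5) in Vehicle. They were 22.3 ± 7.11 TPM with PLX3397, 20.99 ± 5.06 TPM with Anakinra and 26.2 ± 6.74 TPM with both drugs (SD, n = 5 each). The ratio of means over Vehicle was 2.35 with PLX3397, 2.21 with Anakinra and 2.77 with both. On the log2(TPM + 1) scale the difference from Vehicle was 1.12 ± 0.21 (SE) with PLX3397, 1.06 ± 0.21 with Anakinra and 1.37 ± 0.21 with both drugs. These 3 differences share the Vehicle mice. The difference between Vehicle and Sham was 0.42 ± 0.22 (SE), with a 95% interval from -0.03 to 0.87.

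The other members overlapped with Vehicle in all 3 drug comparisons, so that 1 of 6 members stood clear of Vehicle in each. Groups without overlap were seen for 6.89% of all genes tested with PLX3397, 2.57% with Anakinra and 10.7% with both drugs. Because the set was built around Crabp1, nothing is read from this count. The median difference of the 6 members was 0.15 in each of the 3 comparisons, against 0.01, -0.01 and 0.01 over all genes tested. Crabp1 is among the 6 and raises this median, so nothing is read from it either.

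The drug-treated groups were compared with each other for the 5 members other than Crabp1. None of the 5 passed an adjusted p of 0.05 (limma, Benjamini-Hochberg over all genes tested) between PLX3397+Anakinra and PLX3397, where 0.151% of all genes were called. None passed between PLX3397+Anakinra and Anakinra, where 12.8% of genes were called, or between PLX3397 and Anakinra, where 6.69% were called. At an unadjusted p below 0.05, the members were 0, 0 and 1 in these comparisons, the last being Stra6. Of all 17267 genes, 1159, 4816 and 3463 had such a p. Crabp1 differed by 0.25 on the log2 scale between both drugs and PLX3397, with a 95% interval from -0.18 to 0.68. Between both drugs and Anakinra the difference was 0.30, with an interval from -0.12 to 0.73. PLX3397 and Anakinra differed by 0.05, with an interval from -0.37 to 0.48. These values of Crabp1 are given without a test.

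Crabp2, the carrier that delivers retinoic acid to its receptors, was higher in TBI mice than in Sham. The Sham mice had 6.16, 3.77, 4.59 and 4.16 TPM and the Vehicle mice 6.73, 5.56, 8.41, 8.05 and 5.71 TPM. The highest Sham mouse lay inside the range of Vehicle. Levels were 9.58, 9.79, 10.1, 5.90 and 10.8 TPM with PLX3397, 10.4, 7.72, 8.67, 12.5 and 10.8 TPM with Anakinra, and 9.34, 11.7, 9.16, 7.10 and 6.53 TPM with both drugs. Each of these groups overlapped with Vehicle. Crabp2 rose by 0.48 ± 0.17 (SE, log2) in Vehicle over Sham, with an adjusted p of 0.0183 by limma. Leaving out Vehicle mouse J18B, Sham mouse J08 or Sham mouse J16 ended this call, with adjusted p of 0.0538, 0.0701 and 0.0518 by limma. The differences of the drug groups from Vehicle were 0.37, 0.48 and 0.30 for PLX3397, Anakinra and both drugs, with an SE of 0.16 each. Their 95% intervals ran from 0.04 to 0.69, from 0.15 to 0.81 and from -0.03 to 0.62. Crabp1 made up 59.2 ± 6.50% of the summed Crabp1 and Crabp2 TPM in Sham (SD, n = 4) and 57.7 ± 5.18% in Vehicle (SD, n = 5). The share was 69.8 ± 7.96% with PLX3397, 67.4 ± 5.00% with Anakinra and 74.5 ± 5.15% with both drugs (SD, n = 5 each). The rise of Crabp1 that chose the set enters this share. The open reading frames of Crabp1 and Crabp2 were identical at 70.3% of aligned bases, and their transcripts shared no run longer than 11 bases.

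Vehicle was compared with Sham for injury, which here means craniotomy and impact together. Sham mice had no craniotomy, so opening the skull and the impact cannot be told apart. Of the 5 members tested, 3 rose and 1 fell, and Stra6 did not pass. Over all genes tested, 54.3% were called in this comparison, so a high count was also found outside the set. Groups did not overlap for 3 of the 6 members, against 42.7% of all genes tested.

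Aldh1a1, which oxidises retinaldehyde to retinoic acid, rose the most of the 5. The Sham mice had 67.4, 76.0, 79.2 and 87.2 TPM and the Vehicle mice 128, 133, 151, 131 and 140 TPM. All Vehicle mice lay above all Sham mice. The rise was 0.81 ± 0.08 (SE, log2), a ratio of means of 1.76, with an adjusted p of 6.11e-09 by limma. With PLX3397 the levels were 122 to 161 TPM, with Anakinra 119 to 150 TPM and with both drugs 135 to 142 TPM. These groups overlapped with Vehicle, and their log2 differences from it were 0.08, -0.04 and 0.02 with an SE of 0.08 each. Astrocyte markers rose with the injury too, 6 of 6, where 54.3% of all genes were called. Their sums were 1248 to 1395 TPM in Sham and 1874 to 2175 TPM in Vehicle. The dopaminergic neuron markers, cells known for Aldh1a1, had sums of 18.6 to 24.1 TPM in Sham and 16.1 to 25.5 TPM in Vehicle, and 1 of the 5 was below 0.5 TPM in every library. The part of these cells in the rise of Aldh1a1 was not tested, and in whole tissue more cells of a type and more RNA per cell cannot be told apart. Aldh1a7, a close copy whose open reading frame matches that of Aldh1a1 at 91.6% of bases, with a longest shared run of 100 bases, was also called higher and was named after its values were seen. Its mean was 2.16 TPM in Vehicle and 0.786 TPM in Sham, and reads may be divided between both genes, so its value is uncertain.

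Aldh1a2, the retinoic acid enzyme of the meninges, rose by 0.60 ± 0.12 (SE, log2) in Vehicle over Sham, with an adjusted p of 0.000126 by limma. The Sham mice had 6.09, 6.65, 5.64 and 7.53 TPM and the Vehicle mice 10.9, 7.95, 11.7, 12.4 and 9.25 TPM. Both groups were apart. The drug groups had 8.50 to 11.5 TPM, 8.96 to 11.9 TPM and 7.41 to 11.4 TPM for PLX3397, Anakinra and both drugs, inside or close to the range of Vehicle. Their differences from Vehicle were -0.09, -0.04 and -0.06 with an SE of 0.11 each.

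Rbp4, the carrier of retinol, was the member that fell. The Sham mice had 23.0, 23.5, 24.1 and 24.3 TPM, in a narrow range. The Vehicle mice had 18.04, 18.8, 16.5, 13.8 and 21.6 TPM, all below Sham. Rbp4 fell by 0.41 on the log2 scale (SE 0.08), with an adjusted p of 0.000164 by limma. Neuron markers fell in the same comparison, 5 of 6, where 54.3% of all genes were called. Their sums were 5317 to 5637 TPM in Sham and 3139 to 3898 TPM in Vehicle. The part of neurons in the fall of Rbp4 was not tested. Rbp4 was at 18.9 to 22.8 TPM with PLX3397, 17.7 to 20.9 TPM with Anakinra and 19.9 to 23.6 TPM with both drugs. These ranges overlapped with Vehicle, at differences of 0.23, 0.13 and 0.29 with an SE of 0.08 each. The 95% intervals ran from 0.06 to 0.39, from -0.03 to 0.29 and from 0.12 to 0.45, given without a test.

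Stra6, the receptor for RBP4, had 3.87 to 6.55 TPM in Sham and 5.03 to 6.40 TPM in Vehicle. The difference was 0.08, with a 95% interval from -0.22 to 0.38 and an adjusted p of 0.661 by limma. With PLX3397, Anakinra and both drugs, Stra6 ranged from 4.20 to 6.75, 4.70 to 8.46 and 4.50 to 6.93 TPM. The groups overlapped throughout. PLX3397 and Anakinra differed by -0.29, with an interval from -0.58 to -0.01 and an adjusted p of 0.23 by limma.

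The drug groups were also compared with Sham for the 5 members other than Crabp1. With PLX3397, Crabp2, Aldh1a1 and Aldh1a2 rose and none fell, in a comparison with 45.2% of all genes called. With Anakinra the same 3 rose and Rbp4 fell, with 54.4% of genes called. With both drugs the same 3 rose and none fell, with 38.8% of genes called. Aldh1a1 was higher than Sham by 0.90, 0.77 and 0.84 on the log2 scale with PLX3397, Anakinra and both drugs, and Aldh1a2 by 0.51, 0.56 and 0.54. Crabp2 was higher by 0.84, 0.96 and 0.78. The differences of Rbp4 were -0.19, -0.28 and -0.13, with adjusted p of 0.0677, 0.00611 and 0.24 by limma. The differences of Stra6 were -0.05, 0.25 and 0.08, and none passed. Crabp1 had differences of 1.54, 1.48 and 1.78 from Sham, given without a test.

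Other genes of the retinoid pathway were taken from a list by role. Of 55 genes on it, 38 had a mean of at least 0.5 TPM. Between Vehicle and Sham 20 rose, 3 fell and 15 did not pass, a share of 60.5% against 54.3% of all genes, and the median difference was 0.26 against -0.01. With PLX3397 against Vehicle 5 fell and none rose, 13.2% against 9.89% of all genes. With both drugs 7 fell and none rose, 18.4% against 17.5% of all genes. With Anakinra none of the 38 passed, where 0.116% of all genes were called. At an unadjusted p below 0.05 there were 6 of the 38, against 2148 of all 17267 genes. Leaving out Vehicle mouse J17B raised the counts to 8 with PLX3397 and 11 with both drugs.

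Among transport and storage genes, Cd36, a fatty acid receptor, went from 0.785 TPM in Sham to 30.01 TPM in Vehicle, 15.6 TPM with PLX3397 and 8.23 TPM with both drugs. Cd36 rose by 4.06 ± 0.24 (SE, log2) with injury and fell by 0.87 with PLX3397 and by 1.71 with both drugs. Lpl, lipoprotein lipase, rose by 2.19 and fell by 0.67 with PLX3397 and by 0.88 with both drugs. Stra6l, the Stra6 homologue, rose by 0.97 and fell by 0.57 with both drugs. These 3 genes moved opposite ways with injury and with the combination. Ttr, the transthyretin that binds RBP4, was among the 10 choroid plexus marker genes. None of the 10 passed in the 3 drug comparisons. In these, 1, 1 and 0 had an unadjusted p below 0.05, against 3936, 2148 and 5135 of all 17267 genes.

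Among enzymes, Dhrs3, which reduces retinaldehyde back to retinol, had 11.5 ± 0.94 TPM (SD, n = 4) in Sham and 33.9 ± 5.22 TPM (SD, n = 5) in Vehicle. Dhrs3 fell to 20.2 ± 2.77 TPM with PLX3397 and 18.05 ± 2.45 TPM with both drugs (SD, n = 5 each). Adjusted p was 4.26e-11 for the rise, 2.93e-05 with PLX3397 and 8.42e-07 with both drugs by limma. Bco2, a carotenoid oxygenase, rose by 1.12 with injury and fell by 0.59 with PLX3397 and by 0.64 with both drugs. Dhrs4 rose by 0.83 with injury and did not pass in a drug comparison. Among binding proteins, Fabp5, a fatty acid binding protein that also binds retinoic acid, rose by 1.42 with injury and fell by 0.41 with both drugs.

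Microglial markers moved with these falls. All 7 rose with injury and fell with PLX3397 and with both drugs, where 54.3%, 9.89% and 17.5% of all genes were called. Their sums were 1333 to 1734 TPM in Vehicle, 571 to 886 TPM with PLX3397 and 514 to 691 TPM with both. With Anakinra none of the 7 passed, and the sums were 1447 to 1626 TPM. At an unadjusted p below 0.05 there was 1 of the 7, against 2148 of all 17267 genes. Their part in the falls of Cd36, Lpl, Dhrs3, Bco2 and Cd38 was not tested.

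The receptors changed less. Rarg rose by 0.28 and Rxra by 0.23 in Vehicle over Sham, while Rxrb fell by 0.25. These were 42.9% of the 7 receptors on the list, against 54.3% of all genes. Rara, Rarb and Rxrg had differences of -0.03, 0.08 and -0.22 and did not pass, with adjusted p of 0.794, 0.638 and 0.172 by limma. Ppard, neither a RAR nor a RXR but counted among the 7, had 0.08 and an adjusted p of 0.442 by limma. None of the 7 receptors passed in the 3 drug comparisons. In these, 1, 0 and 2 had an unadjusted p below 0.05, against 3936, 2148 and 5135 of all 17267 genes. Rarb, a gene that retinoic acid induces through its own receptor, had 22.8 ± 4.46 TPM in Vehicle, 22.9 ± 3.03 TPM with PLX3397, 22.2 ± 3.92 TPM with Anakinra and 25.9 ± 3.00 TPM with both drugs (SD, n = 5 each). Cyp26b1, which degrades retinoic acid and is induced by it, had 4.66 TPM in Vehicle and 4.16 to 4.53 TPM in the drug groups, with adjusted p of 0.842, 0.772 and 0.996 by limma. Cyp26a1 had a highest value of 0.483 TPM in any mouse and Cyp26c1 one of 0.0622 TPM, so neither was tested. Of 14 listed genes known to be induced by retinoic acid, 10 were tested, of which 7 rose and 1 fell with injury. Rarb and Cyp26b1 did not pass with injury, with adjusted p of 0.638 and 0.121 by limma, and retinoic acid itself was not measured. The share called was 80% against 54.3% of all genes. With PLX3397 and with both drugs, Dhrs3 and Cd38 fell and none rose, 20% in each, against 9.89% and 17.5% of all genes. Cd38 fell by 0.43 with PLX3397 and by 0.81 with both drugs. With Anakinra, Cd38 had a difference of -0.41 from Vehicle without overlap between the groups, at an adjusted p of 0.162 by limma. With Anakinra none of the 10 passed and 2 had an unadjusted p below 0.05, against 2148 of all 17267 genes.

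**Figure D2:**
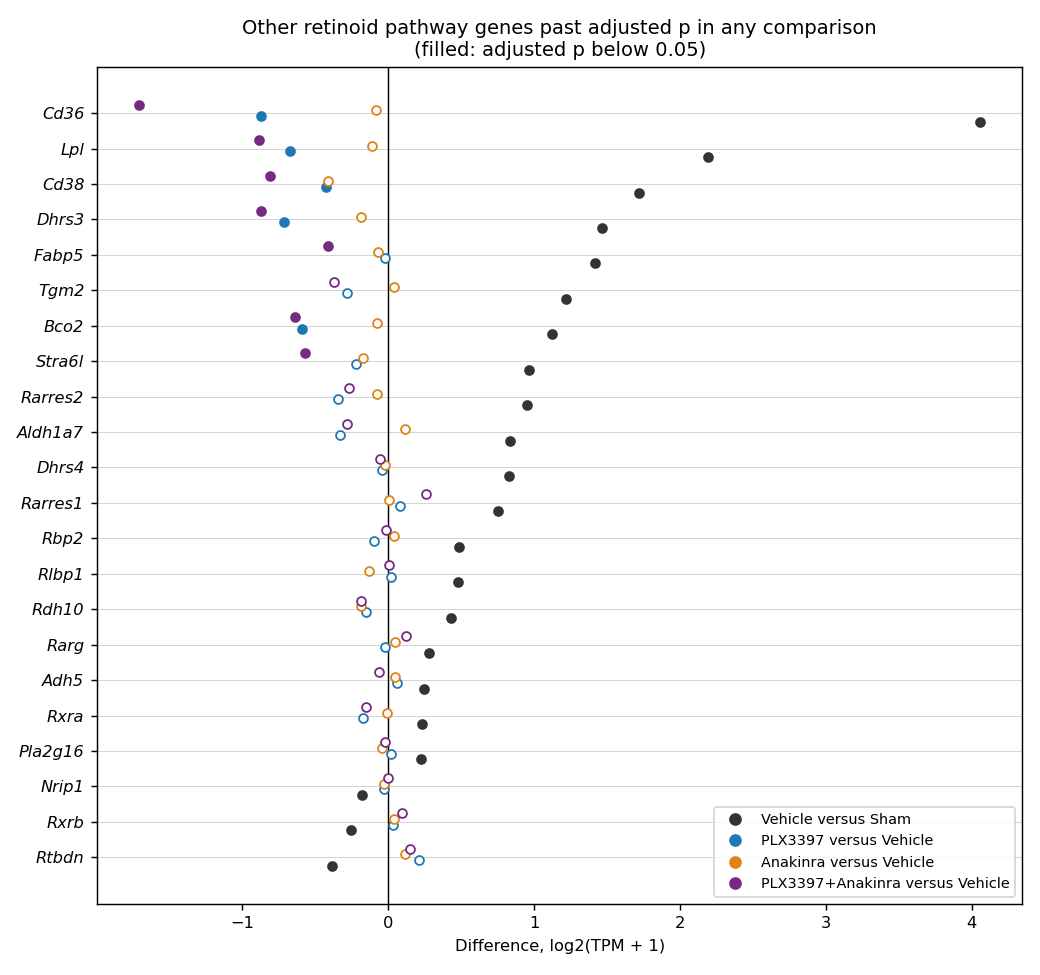
Differences on the log2(TPM + 1) scale of the other retinoid pathway genes with an adjusted p below 0.05 in at least 1 of the 4 comparisons, where filled points pass and open points do not. A called gene that is not reported here is not drawn. Cd36 at 4.06 with injury lies farthest to the right, and the filled points of PLX3397 and of PLX3397+Anakinra all lie to the left.

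The median fibroblast marker was higher in the drug groups than in Vehicle, and the marker sums of Vehicle lay above those of Sham, where Crabp1 overlapped. Of the 10 markers, 9 rose between Sham and Vehicle, 90% against 54.3% of all genes. In the drug comparisons 5 rose and 1 fell with PLX3397, 60% against 9.89% of all genes. None passed with Anakinra, where 0.116% of all genes were called. At an unadjusted p below 0.05 there were 8 of the 10, against 2148 of all 17267 genes. With both drugs 6 rose and 1 fell, 70% against 17.5% of all genes. The median differences of the 10 markers from Vehicle were 0.91, 1.07 and 0.94 with PLX3397, Anakinra and both drugs. The summed level, led by Col1a2, Col1a1 and Col3a1, was 94.2 to 105 TPM in Sham, 148 to 804 TPM in Vehicle, 546 to 1280 TPM with PLX3397, 889 to 1702 TPM with Anakinra and 795 to 1357 TPM with both drugs. No marker of the list was below 0.5 TPM in every library. The meningeal markers showed sums of 161 to 210 TPM in Vehicle and 194 to 271 TPM over the drug groups. Of the 12 meningeal markers 3 rose with PLX3397, none passed with Anakinra and 4 rose with both drugs. With Anakinra 6 of the 12 had an unadjusted p below 0.05, as did 2148 of all 17267 genes. The shares were 25% with PLX3397 and 33.3% with both drugs, against 9.89% and 17.5% of all genes.

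Vehicle mice J17B and J20B had fibroblast sums of 148 and 184 TPM, the lowest of the mice with TBI. Without both mice, the Crabp1 differences from Vehicle were 0.96 with PLX3397, 0.90 with Anakinra and 1.21 with both drugs. Over the 24 libraries Crabp1 and the fibroblast sum, both as log2(TPM + 1), had r = 0.85, and r = 0.48 with the group means removed. For the sum of the mural cell markers these were 0.80 and 0.60, and for the meningeal sum 0.80 and 0.23. The part of fibroblasts, mural cells and meninges in the difference of Crabp1 was not tested.

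**Figure D3:**
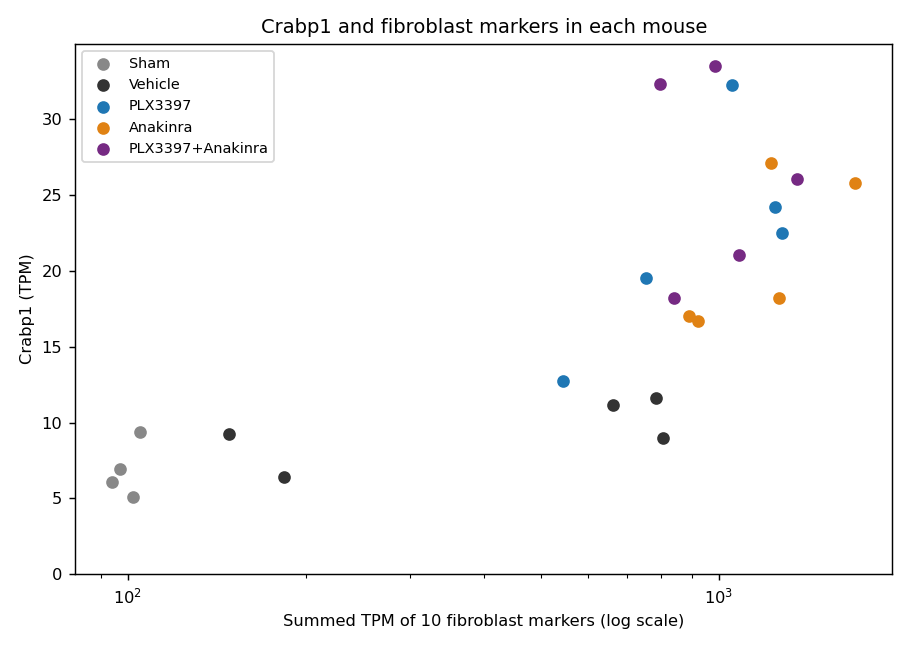
Crabp1 TPM of each mouse (vertical axis) against the summed TPM of 10 fibroblast markers (horizontal axis, log scale), coloured by group. Sham mice lie at the lower left, Vehicle mice spread from 148 to 804 TPM at 6.41 to 11.6 TPM of Crabp1, and drug-treated mice lie from 546 TPM up, at 12.7 to 33.6 TPM of Crabp1.

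The genes whose pattern was most like that of a member were taken by Pearson r of log2(TPM + 1) over the 24 libraries, which share the group differences. For Crabp1 these were Arsi (r = 0.903), Anxa6, Col12a1, Hmga2, Fkbp11, Foxc2, Tbx15, Postn, Fstl1 and Lum (r = 0.872). With the group means removed, the most alike were Slc38a2 (r = 0.758), Tnfrsf23, Rnaseh2a, Spon2, Kif11, Commd7, Pm20d2, Ankrd10, Chrnb1 and Slc38a4 (r = 0.673). No gene was on both lists. For Crabp2 the most alike were Mrc2, Twist1, Fkbp9, Lama4 and Snai1, with r from 0.885 to 0.897. For Aldh1a1 they were Clu, Rida, 1810058I24Rik, Il33 and Angpt1, with r from 0.958 to 0.972. Aldh1a2 was most like Vstm4, Rhbdf1, Idh2, Rab29 and Prss23, with r from 0.876 to 0.901, and within groups Aebp1, Atp5k, Rps29, Tnfrsf1a and Myl6, with r from 0.779 to 0.796. Rbp4 was most like Cxx1b, Uchl1, Ppp2r1a, Armc6 and Mtch1, with r from 0.847 to 0.863. Stra6 was most like Gm36416, Hps4, Gm28523, Hnrnph3 and Slc35c1, with r from 0.673 to 0.775.

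Between members, the strongest relation over the 24 libraries was that of Crabp1 and Crabp2, with r = 0.75, followed by Aldh1a1 and Aldh1a2 with r = 0.74. With the group means removed these were 0.34 and 0.15. Within groups Crabp2 and Aldh1a2 had r = 0.44, and Crabp1 and Rbp4 had r = -0.57. The libraries share groups and total, and these values are descriptions over 24 mice.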

How the data were processed

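Polyadenylated RNA of 24 mice was sequenced, 1 library per mouse, and groups follow the treatment label. Per the study's methods, the authors mapped the reads in CLC Genomics Workbench, and the labels name the build GRCm38. The authors deposited TPM in a full table and a rounded one. The full table was used, and each library sums to 1000000 TPM over 36333 genes. The methods also call the unit CPM, but low values shared no common step within a library, as length scaling gives. A filtered table also holds p-values and F values of the authors, which were not used. Counts and totals were not used here, so the depth of each library is unknown and precision rests on the spread between mice.

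The fit used limma 3.58.1 (R 4.3.3) on log2(TPM + 1), for genes averaging 0.5 TPM or more. It held a mean for each group, a variance trend and all 24 libraries. Differences understate changes of low genes. P-values were Benjamini-Hochberg adjusted over 17267 genes, with a call at 0.05. The steps were tested on simulated data with independent noise for each gene. Changes were set only in the more abundant genes, so low genes and relations between genes were not covered. Members and lists were chosen with earlier results of these data known. All 6 members are described, Crabp1 without any test, since its drug-group values chose the set. Other pathway genes are named when called, at most the 8 with the smallest adjusted p per comparison, plus receptors and CYP26 enzymes, and 1 item counted among them is not reported here. Sequences are from RefSeq and GENCODE on GRCm38, with alignment in Biopython 1.88. Alternatives were another pseudocount, filter, scaling, criteria and replicate set.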

Additional observations from a re-analysis of the deposited data

Results flagged for a closer look

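Of 30 sets of 1 gene in 1 group examined for a mouse far from the others, 1 stood apart, where chance gives about 1 in 20. Crabp2 in PLX3397 mouse J19 was 5.90 TPM, while the nearest of the other 4 mice had 9.58 TPM. The gap took up 0.754 of the range of the group, above Dixon's critical value of 0.71 for 5 mice.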

How the results depend on the processing

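The study's criteria were applied with the limma p (unadjusted p below 0.05, a ratio of means above 2 and a difference above 4 TPM). Of the 5 members other than Crabp1, 0 passed these criteria in Vehicle against Sham. Against Sham, 0 passed with PLX3397, 1 with Anakinra and 0 with both drugs. Of all 17267 genes, 909 passed in Vehicle against Sham, 632 with PLX3397, 914 with Anakinra and 500 with both drugs. Crabp1, left out of these counts, had ratios of means over Sham of 3.24 with PLX3397, 3.06 with Anakinra and 3.83 with both drugs. The other pathway genes then numbered 7 in Vehicle against Sham, and 0 with PLX3397, 1 with Anakinra and 1 with both drugs against Vehicle. Over all 17267 genes the counts against Vehicle were 176, 31 and 285. The gene with Anakinra was Rbp3, with means of 4.13 TPM and 0.124 TPM in Vehicle. Its median with Anakinra was 0.0693 TPM and its highest mouse had 17.9 TPM, so little is read from it. These criteria ask for a larger change than the adjusted p does, but leave the p unadjusted.

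Leaving out each mouse in turn gave 3 to 4 of the 5 members other than Crabp1 past adjusted p in Vehicle against Sham. Against Sham there were 3 to 4 with PLX3397, 4 to 5 with Anakinra and 3 to 3 with both drugs. The 3 comparisons between drugs gave 0 to 0. The pathway genes numbered 20 to 24 with injury, 4 to 8 with PLX3397, 0 to 0 with Anakinra and 7 to 11 with both drugs. The Crabp1 difference from Vehicle ranged from 0.97 to 1.29, 0.94 to 1.14 and 1.25 to 1.48. Leaving out Vehicle mice J17B and J20B together, chosen after seeing the data, gave 8 pathway genes with PLX3397.

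Of 550 alternative values of the members tested, 532 kept their direction and side of the threshold, 3 lost a call, 3 gained one and 12 changed sign. Of 326 alternative values given without a test, 14 changed sign, in Stra6, Aldh1a2 and Aldh1a1 against Vehicle and Crabp1 between PLX3397 and Anakinra, and each of the 326 moved by less than the spread between mice. All 12 sign changes of tested members came from leaving out a mouse and none was of a called difference. Their ranges were -0.051 to 0.159 for Stra6 in Vehicle, -0.179 to 0.0309 with PLX3397 and -0.0493 to 0.161 with both drugs, against Sham. Between both drugs and PLX3397 they were -0.203 to 0.0198 for Crabp2 and -0.0217 to 0.119 for Aldh1a2. For Aldh1a2 they were -0.0735 to 0.0669 between both drugs and Anakinra and -0.11 to 0.00532 between PLX3397 and Anakinra, where Crabp2 ranged from -0.195 to 0.0209. The lost calls were Crabp2 in Vehicle against Sham. The gained calls were Rbp4 with PLX3397 against Sham in a fit of those groups alone and without PLX3397 mouse J01, and Stra6 with Anakinra against Sham without Anakinra mouse J06. The exact two-sided permutation test of Vehicle against Sham gave p = 0.0159 for Rbp4, Aldh1a1 and Aldh1a2, the smallest that 126 arrangements can give, and 0.0476 for Crabp2.

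Some Vehicle and drug mice share a number, but their deviations did not go together (r from -0.134 to 0.318), so the numbers were not taken as pairing. A replicate block gave 6 pathway genes with PLX3397 and a Crabp1 difference of 1.14, and was read for PLX3397 against Vehicle only. The letter B is on Vehicle mice alone, so what it marks cannot be told apart from the vehicle treatment.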
